A study of Homo sapiens with 42 samples.

Results

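The comparison set THZ1 directly against YKL at 2 µM in wild-type (WT) HAP1 cells, 24 h after the compounds were added. HAP1 is a near-haploid human line derived from a chronic myeloid leukaemia. The libraries were chosen by their labelled line and treatment: 3 with THZ1 and 3 with YKL 2 µM, 6 of the 42 polyadenylated RNA libraries of the series. The 3 WT libraries with DMSO, the vehicle, are set beside them as levels, as are those with YKL 500 nM, with THZ531 (an inhibitor of CDK12 and CDK13) and with the combination at 2 µM. The title of the combination names no compound, but its column name joins the codes of the THZ531 and YKL columns. The same contrast was fitted in HAP1 cells carrying the C312S substitution in CDK7, at the cysteine to which covalent inhibitors of this kinase attach. YKL is a code name, read here as the covalent inhibitor of CDK7 in the series title. The labels give no dose for THZ1 or THZ531. The doses of THZ1 and YKL can therefore not be matched, and each difference below is between these treatments as given, not between the compounds at a shared dose. No label says that the 3 libraries of a group are separate cultures, or that the C312S line is 1 clone. The p-values thus measure how far libraries differ, and that spread may be technical only.

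CDK7 with cyclin H and MAT1 forms the CDK-activating kinase, which phosphorylates the cell cycle kinases on their activation loop. As part of the general transcription factor TFIIH the same kinase phosphorylates the tail of RNA polymerase II at promoters, while CDK9, CDK12 and CDK13 act later in the transcription cycle. THZ1 was described as a covalent CDK7 inhibitor that also binds CDK12 and CDK13, and the series title calls its compound selective. Selectivity and dose cannot be told apart in this contrast, because the dose of THZ1 is not given.

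With THZ1 the cells held more messenger RNA for ribosomal proteins, mitotic regulators, splicing factors, NRF2 targets and immediate early genes, relative to their other genes, than with YKL 2 µM. Among the genes they held less of were PNRC1, TLCD1, RFX5, ACTA2, UCP2 and BTG2. Of 12816 genes tested with limma on log2(FPKM + 1), 8719 (68%) passed a Benjamini-Hochberg adjusted p of 0.05, 4546 (35.5%) higher and 4173 (32.6%) lower with THZ1. At least 2-fold (a difference of 1 on this scale) were 592 of them (4.62%), 254 higher (1.98%) and 338 lower (2.64%). The median gene differed by 0.01. The 2 groups of 3 libraries did not overlap for 70.6% of tested genes. The difference rose with the level of the gene: the median was 0.40 over the 1282 genes with the highest mean level and -0.12 over the 1282 with the lowest, a Spearman's rho of 0.33 across genes, which are not independent replicates. Gene lists below are set against all tested genes, not against genes of like level. The shares of 35.5% higher and 32.6% lower are the background for each list count.

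**Figure D1:**
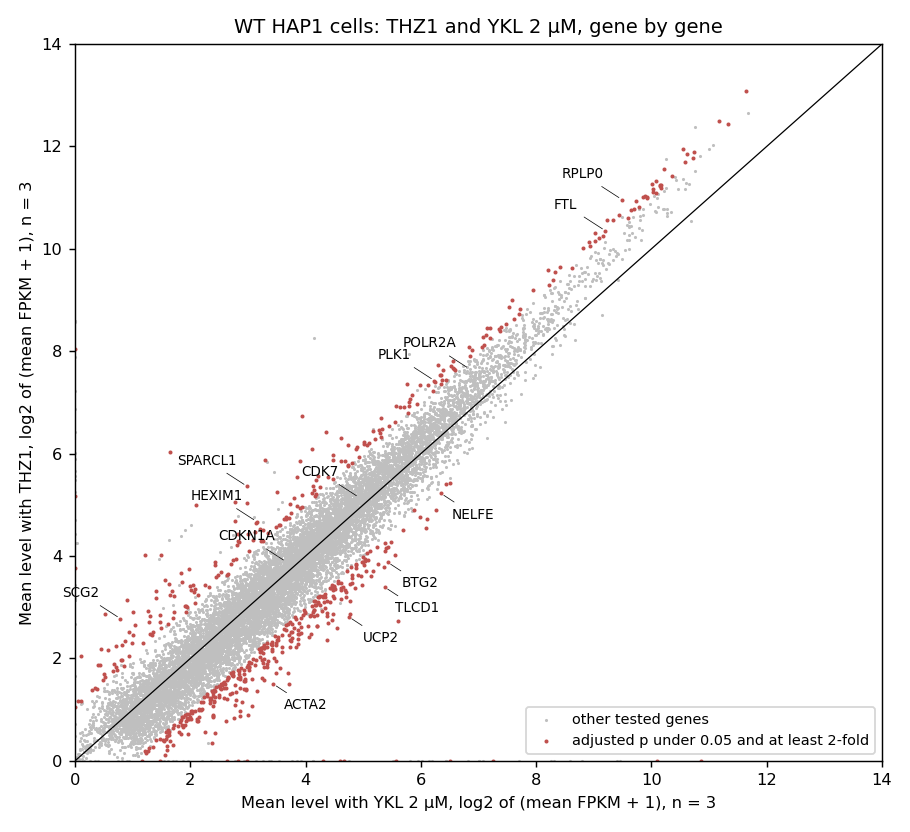
Mean level of each tested gene with YKL 2 µM (x) and THZ1 (y), both as log2 of (mean FPKM + 1) over 3 libraries, with the line of equality. The 592 genes in red passed the test with at least a 2-fold difference, and the cloud bends above the line at its upper end, where genes such as RPLP0 and FTL lie, on the deposited scale.

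Those directions hold on the deposited scale, where each gene is measured against the others. The ERCC spike-in RNAs, synthetic transcripts that serve as an external reference, behaved differently. Of their 92 rows, the 23 above 1 FPKM in all 42 libraries were used, for the levels below and for scaling. Their level relative to the genes (median log2 ratios to the geometric mean of all libraries, spike-ins minus genes) was 1.83, 1.83 and 1.81 in the THZ1 libraries, -0.28, -0.59 and -0.53 with YKL 2 µM and -0.53, -0.63 and -0.68 with DMSO. The THZ1 libraries lay apart from both others, 2.29 log2 or 4.90-fold above YKL 2 µM (two-sided exact permutation p = 0.1, the smallest that 3 against 3 allows). The sources used here do not give the step or the amount in which spike-ins were added. Scaling to the spike-ins moved the median gene to -1.86, and 12483 genes were then called, 12 higher (0.096%) and the rest lower with THZ1. Scaling to equal total FPKM moved it to -0.38 and called 10121, of which 1287 (12.7%) were higher, against 52.1% of calls on the deposited scale. Among the 12 genes higher with spike-in scaling were SCG2, HIST1H4C, SLC7A5P1, HNRNPA1P10 and ZFP91-CNTF. With that scaling the median of every gene list below was under 0. Because 1 FPKM was added after scaling, low genes moved less than high ones. The place of a list against the median gene therefore moved as well. With equal total FPKM the medians above 0 were those of ribosomal protein genes (0.52), snoRNA host genes (0.34), the 6 tested blood cell genes (0.19), G2 and mitosis genes (0.18), NRF2 targets (0.12) and integrated stress response genes (0.01). Differences are therefore given relative to the other genes, and fewer cells and less RNA per cell cannot be told apart in such bulk libraries.

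The libraries differed in other measures too. Summed FPKM was 628311 ± 10392 with THZ1 (SD over 3 libraries, as for each group mean), 455948 ± 7014 with YKL 2 µM and 558669 ± 26426 with DMSO. Read depth is unknown, because FPKM keep no counts, and no counting interval can be given. Most blood cell, epithelial and fibroblast markers were low: 12 of 18 blood cell genes and 10 of 17 epithelial and fibroblast genes stayed under 1 FPKM in all 6 libraries. GATA1, HBG1 and SPI1 were listed at 0 in all 6. The summed level of the blood genes was 38.3 to 44.7 FPKM with THZ1 and 24.0 to 28.7 with YKL 2 µM, led by GATA2 (means 25.1 and 16.5) and HBA1 (10.3 and 4.97). That of the epithelial and fibroblast genes was 61.9 to 65.1 and 56.5 to 59.7, led by KRT18 (means 35.8 and 36.0) and THY1 (12.5 and 12.4). Their part in the results was not tested. No link between the difference and GC content or transcript length was seen across genes (rho -0.03 and -0.02).

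**Figure D2:**
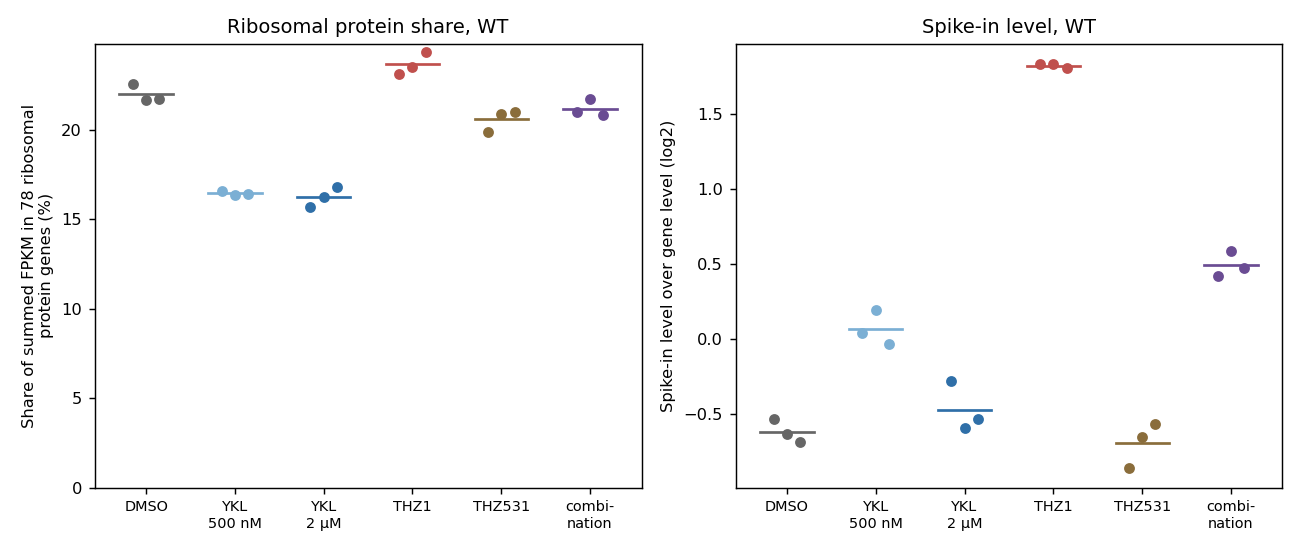
Share of summed FPKM in 78 ribosomal protein genes (left, %) and spike-in level over gene level (right, log2) in each library of 6 WT groups, with group means as lines and n = 3. The THZ1 libraries have the highest spike-in level, around 1.82, and the YKL libraries the lowest ribosomal protein share.

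Messenger RNAs of ribosomal proteins were higher with THZ1 nearly throughout, relative to other genes. Of the 78 cytosolic ribosomal protein genes, all tested, 76 were higher with THZ1 and 0 lower (median 0.98, against 0.01 over all tested genes). The median was 0.52 with equal total FPKM and -1.33 with spike-in scaling, where all genes had a median of -1.86. Together they took 23.7% ± 0.646 of summed FPKM with THZ1, 16.2% ± 0.555 with YKL 2 µM and 22.0% ± 0.521 with DMSO (THZ1 against YKL 2 µM, two-sided exact permutation p = 0.1). RPLP0, a protein of the ribosomal stalk, had 1992, 1966 and 2021 FPKM with THZ1, 713, 719 and 719 with YKL 2 µM and 1486, 1370 and 1332 with DMSO. The 3 treatments did not overlap, with THZ1 highest and YKL lowest, and the difference was 1.47 ± 0.06 (SE). Its partner RPLP2 had 3045, 2984 and 2993 FPKM with THZ1 and 1202, 1198 and 1170 with YKL 2 µM (difference 1.34 ± 0.05). With THZ531 the means of RPLP0 and RPLP2 were 1219 ± 42.7 and 1756 ± 74.4. Ribosomal protein genes have many near-identical pseudogenes, so single members are uncertain: RPL21, singled out after its values were seen, was listed at 54.3, 0.06 and 0.05 FPKM in the THZ1 libraries.

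Host genes of small nucleolar RNAs, whose introns release the RNAs that guide ribosomal RNA modification, went the same way. Of 17 tested, 14 were higher with THZ1 and 0 lower (median 0.75, 0.34 with equal total FPKM and -1.50 with spike-in scaling). SNHG1 had 131, 143 and 151 FPKM with THZ1, 53.6, 60.3 and 56.5 with YKL 2 µM and 256, 214 and 217 with DMSO. Both compounds thus lay under DMSO, YKL further than THZ1 (difference 1.30 ± 0.07). ZFAS1 had 453, 444 and 498 FPKM with THZ1 and 171, 186 and 193 with YKL 2 µM, with DMSO between them at 332, 273 and 273 (difference 1.34 ± 0.08).

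Many transcripts of both kinds begin within a run of pyrimidines, the 5′ terminal oligopyrimidine (TOP) motif. The first bases of the 4 genes just described are shown because these groups moved together. Each line runs 5′ to 3′ on the transcribed strand, from 10 bases before to 20 bases from the annotated start, in RefSeq on GRCh38.p14, and capitals mark the longest run of C and T.
RPLP0: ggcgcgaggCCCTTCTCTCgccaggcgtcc
RPLP2: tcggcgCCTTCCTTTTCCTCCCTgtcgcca
SNHG1: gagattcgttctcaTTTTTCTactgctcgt
ZFAS1: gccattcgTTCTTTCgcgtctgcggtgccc

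They lie at chr12:120201092-120201121 (minus strand), chr11:809957-809986 (plus), chr11:62855866-62855895 (minus) and chr20:49278632-49278661 (plus). The runs are 10, 17, 7 and 7 bases long. In RPLP0 and RPLP2 the run spans the annotated start, as it does in ZFAS1, while in SNHG1 it begins inside the transcript. A run of at least 7 was held by 51 of the 62 ribosomal protein genes with a RefSeq window (82.3%), by 6 of 14 snoRNA host genes (42.9%) and by 6776 of all 35116 windows (19.3%). A match describes the letters and is not a measured site.

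G2 and mitosis genes were mostly higher with THZ1: 36 of 42 tested, with 1 lower (median 0.64, 0.18 with equal total FPKM and -1.59 with spike-in scaling). PLK1, the polo-like kinase that drives mitotic entry, had 171, 175 and 166 FPKM with THZ1, 73.2, 79.1 and 70.5 with YKL 2 µM and 175, 185 and 171 with DMSO. The THZ1 values sat within or just under the range of DMSO and the YKL values far under it (THZ1 over YKL 2.30-fold, difference 1.19 ± 0.05). TPX2, a spindle assembly factor that activates Aurora A, had 161, 166 and 178 FPKM with THZ1, 75.5, 72.1 and 75.7 with YKL 2 µM and 140, 127 and 129 with DMSO. Here THZ1 lay above DMSO (difference from YKL 1.16 ± 0.04). With THZ531 PLK1 averaged 188 ± 4.39 and TPX2 157 ± 4.79 FPKM, and with the combination 88.2 ± 4.0 and 104 ± 3.10. CDC25B, a phosphatase that activates CDK1, was the 1 lower member, at 22.4 ± 1.06 FPKM with THZ1, 32.9 ± 1.62 with YKL 2 µM and 42.7 ± 1.72 with DMSO.

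Promoters of mitotic genes often hold a cell cycle homology region, whose core TTTGAA was searched on both strands in the 100 bases before the start. It was present in 15 of the 36 G2 and mitosis genes with a RefSeq window (41.7%) and in 4.61% of all windows of that length. PLK1 is shown as the member with the largest difference, at chr16:23678789-23678888 (plus strand, GRCh38.p14, RefSeq), with the match in capitals beginning 29 bases before the start.
PLK1: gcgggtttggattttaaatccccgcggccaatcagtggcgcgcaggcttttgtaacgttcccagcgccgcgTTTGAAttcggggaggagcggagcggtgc

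S phase and E2F target genes were split, with 30 of 47 tested higher with THZ1 and 12 lower (median 0.36, -0.09 with equal total FPKM and -1.85 with spike-in scaling, close to that of all genes). TYMS, the thymidylate synthase, had 347, 346 and 348 FPKM with THZ1, 137, 144 and 140 with YKL 2 µM and 247, 228 and 224 with DMSO. The 3 treatments were apart, THZ1 above DMSO and YKL under it (difference 1.30 ± 0.03). MCM4, a subunit of the replicative helicase, averaged 146 ± 2.77, 98.4 ± 1.20 and 158 ± 2.54 FPKM in the same order (difference 0.57). Among the 12 lower with THZ1 were CCNE2, E2F1 and GINS4. CCNE2, a cyclin E, had 11, 11.4 and 10.1 FPKM with THZ1, 19.1, 21.5 and 20.7 with YKL 2 µM and 15.6, 15.8 and 16.0 with DMSO. Its groups were apart with DMSO in between (difference -0.86 ± 0.08). E2F1, the transcription factor of the S phase programme, was under DMSO (25.6 ± 0.468 FPKM) with both, at 10.2 ± 0.0611 with THZ1 and 13.2 ± 0.523 with YKL 2 µM (difference -0.34). GINS4, a replication fork subunit, was at 12.9 ± 0.518 with THZ1 and 23.1 ± 0.177 with YKL 2 µM (difference -0.79).

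CDKN1A, which encodes the CDK inhibitor p21, was above DMSO with both treatments. It had 13.4, 14.8 and 13.1 FPKM with THZ1, 10.8, 12.9 and 11.4 with YKL 2 µM and 3.64, 4.11 and 3.43 with DMSO. The THZ1 libraries were just above the YKL libraries, and the difference of 0.22 (95% interval 0.02 to 0.42) gave a limma adjusted p of 0.0438. That call was lost with 1 library left out: the adjusted p was 0.0602 without THZ1 replicate 1, 0.163 without THZ1 replicate 2, 0.166 without YKL replicate 1 and 0.106 without YKL replicate 3, and 0.0658 with a pseudocount of 0.1. It was -0.21 with equal total FPKM.

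Other p53 targets leaned to YKL: 11 of 24 tested were lower with THZ1 and 4 higher (median -0.13, under that of all genes with each scaling). BTG2, an antiproliferative gene, had 14.9, 13.1 and 13 FPKM with THZ1, 41.1, 42.2 and 42.3 with YKL 2 µM and 13.2, 12.2 and 12.2 with DMSO. The YKL libraries stood above the other 6, which overlapped (difference -1.55 ± 0.06). TNFRSF10B, a death receptor, was at 26.3 ± 1.51 with THZ1, 36.4 ± 0.253 with YKL 2 µM and 27.6 ± 0.678 with DMSO. FDXR, a mitochondrial ferredoxin reductase, went the other way, at 30.3 ± 2.01 with THZ1, 14.4 ± 0.693 with YKL 2 µM and 10.5 ± 0.572 with DMSO (difference 1.02).

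Among survival and death genes of the BCL2 family 4 of 17 tested were higher with THZ1 and 6 lower (median 0.02). MCL1, a short-lived survival factor often followed in studies of transcriptional kinases, had 63.0, 63.8 and 66.7 FPKM with THZ1, 61.0, 59.2 and 58.8 with YKL 2 µM and 58.7, 55.8 and 54.9 with DMSO. Its difference was 0.11 (95% interval 0.01 to 0.21), with a limma adjusted p of 0.0483. That call was lost as well, with an adjusted p of 0.0659 and 0.171 without THZ1 replicate 2 or 3 and of 0.102 and 0.118 without YKL replicate 2 or 3, and the difference was -0.35 with equal total FPKM. BCL2L1, which encodes the survival protein BCL-XL, was at 52.6 ± 0.667 with THZ1, 42.1 ± 0.951 with YKL 2 µM and 34.7 ± 1.24 with DMSO. BCL2L11, the death activator BIM, was at 6.4 ± 0.574 and 4.6 ± 0.127 (difference 0.40, and 0.0097 with equal total FPKM, which did not pass). BAX and BID, both promoting death, were lower with THZ1, at 54.0 ± 2.16 against 74.8 ± 1.76 and 13.9 ± 0.153 against 18.8 ± 0.278 FPKM.

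**Figure D3:**
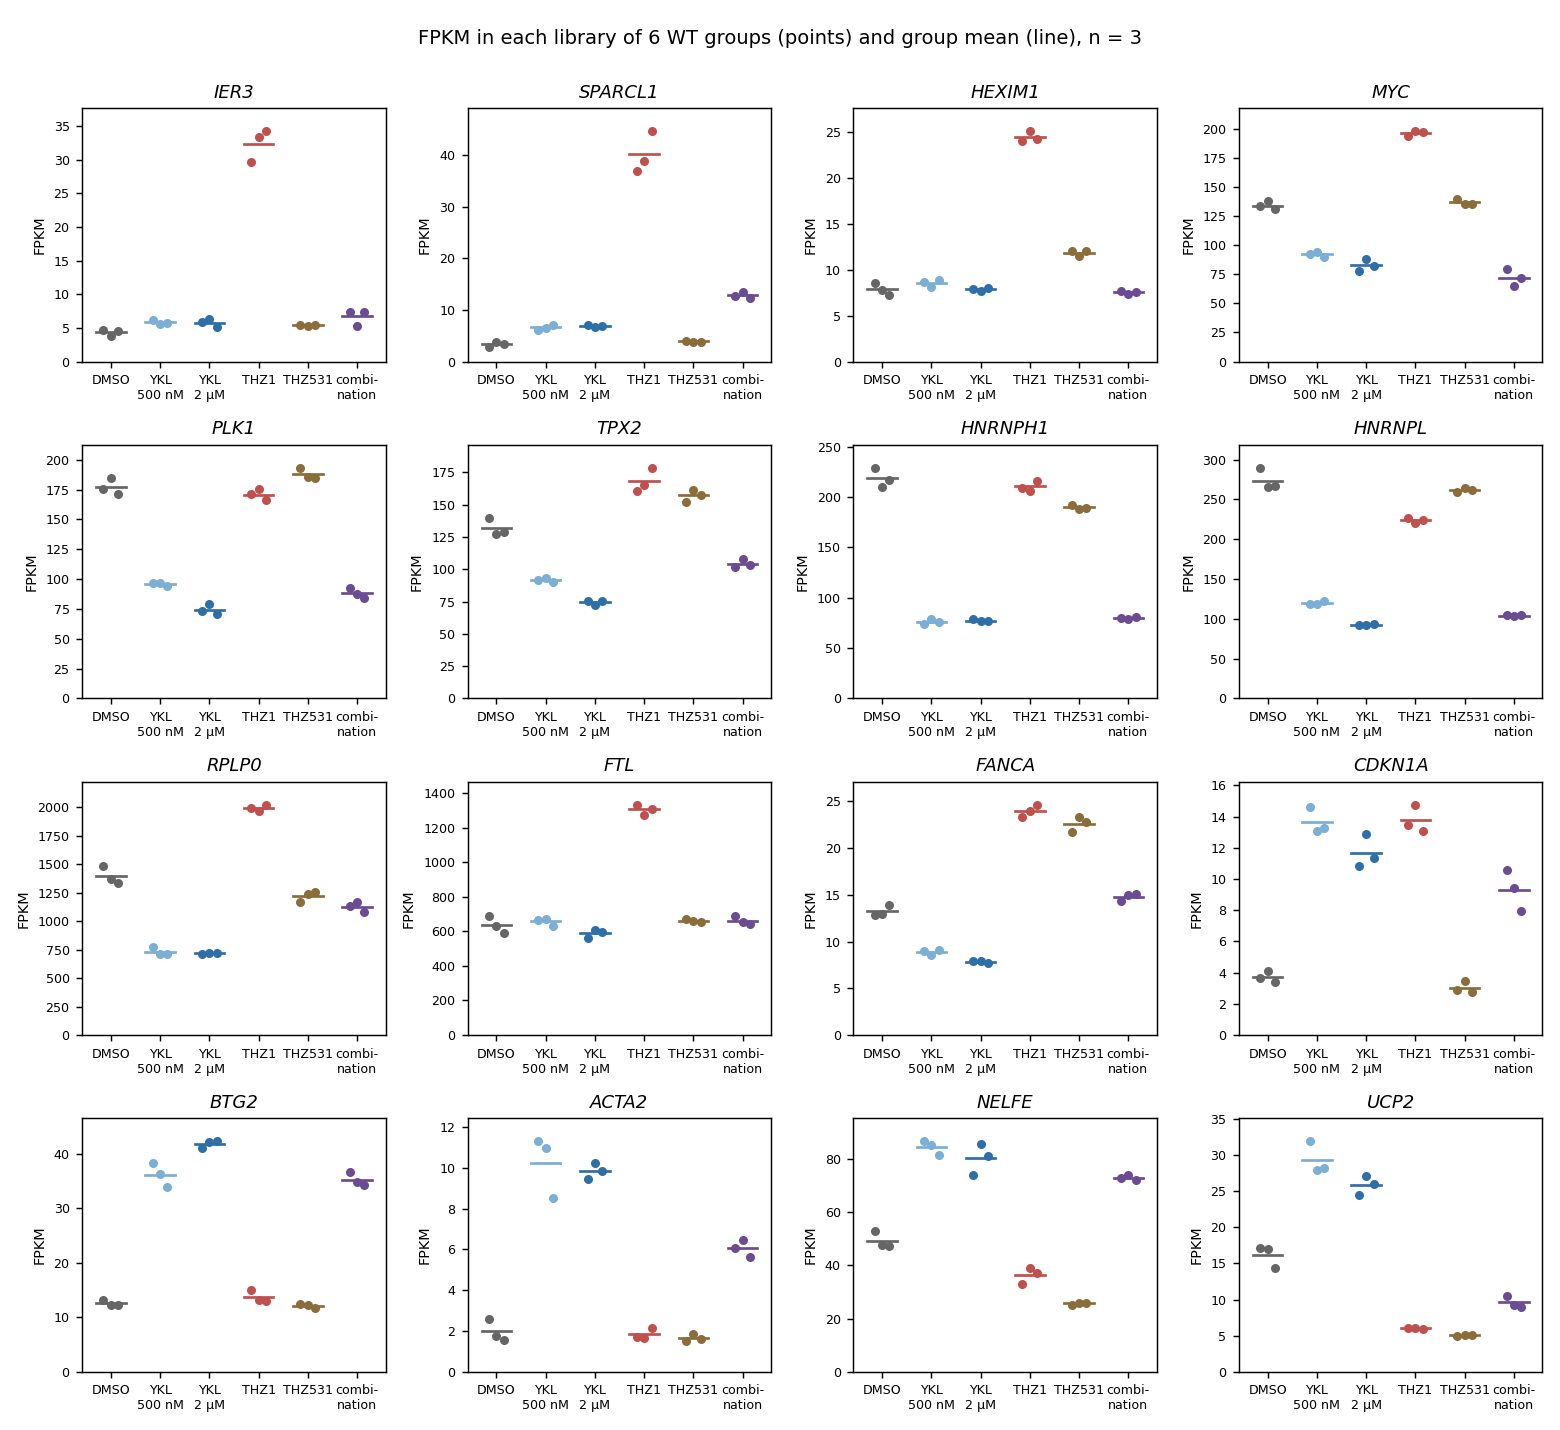
FPKM of 16 genes in each library (points) of 6 WT groups with the group mean (line), n = 3, on the deposited scale. IER3, SPARCL1, HEXIM1 and FTL are highest with THZ1 among these groups, PLK1 and the splicing factors are low with YKL at both doses and the combination, and BTG2 and ACTA2 are high in those same groups.

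At the level of RNA, CDK7 itself differed little. It had 35.1, 31.8 and 35.8 FPKM with THZ1, 28.8, 28.0 and 31.9 with YKL 2 µM and 40.4, 37.5 and 36.6 with DMSO. The THZ1 and YKL ranges overlapped narrowly, and DMSO was above both (difference 0.21 ± 0.06). These RNA levels say nothing of the kinase's activity. Of the 10 genes of the CDK-activating kinase and TFIIH 4 were higher and 0 lower (median 0.11), against 35.5% and 32.6% of all tested genes. Cyclin H (CCNH) was at 53.2 ± 1.82 and 44.2 ± 2.57 FPKM and the TFIIH subunit GTF2H3 at 17.0 ± 0.222 and 14.9 ± 0.192. Those differences turned with equal total FPKM, to -0.24 for CDK7, -0.19 for CCNH and -0.26 for GTF2H3.

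CDK12, CDK13 and their cyclin K (CCNK), which carry polymerase through long genes and which THZ1 also binds, were all higher with THZ1. CDK12 had 23.8, 23.9 and 24.3 FPKM with THZ1, 16.2, 14.8 and 15.3 with YKL 2 µM and 18.1, 20.5 and 21.6 with DMSO, with no overlap and DMSO in between (difference 0.61 ± 0.06, and 0.17 with equal total FPKM, which did not pass). With THZ531 it was at 27.2 ± 1.19. CDK13 differed by 0.34 and CCNK by 0.30, which became -0.086 and -0.15 with equal total FPKM, where neither passed.

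P-TEFb is CDK9 with cyclin T, held inactive by HEXIM proteins on the 7SK RNA. HEXIM1 had 24.0, 25.1 and 24.3 FPKM with THZ1, 7.92, 7.73 and 8.03 with YKL 2 µM and 8.59, 7.83 and 7.28 with DMSO. The THZ1 libraries stood 3.10-fold above YKL 2 µM, whose range fell inside that of DMSO (difference 1.52 ± 0.05, limma adjusted p = 1.33e-22). CDK9 was lower with THZ1, at 12.2 ± 0.996 against 21.2 ± 1.06 and 18.3 ± 0.821 with DMSO (difference -0.76). Of the 8 members 3 were higher, among them LARP7, a 7SK binding protein (0.23), and 1 was lower (median 0.10, -1.94 with spike-in scaling and 0.15 without YKL replicate 1). Over all tested genes 35.5% were higher and 32.6% lower.

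The promoter of HEXIM1 is shown because no other member of the transcription lists differed more, at chr17:45148375-45148474 (plus strand, GRCh38.p14, RefSeq). Capitals mark TATAAA, which begins 29 bases before the start.
HEXIM1: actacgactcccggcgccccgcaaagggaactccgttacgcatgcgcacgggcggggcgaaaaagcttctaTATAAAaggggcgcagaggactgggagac

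TATAAA, searched on both strands in the 100 bases before the start, was present in 4.99% of all windows and in 7 of 26 immediate early genes (26.9%) with one.

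Of 19 pausing and elongation factors 12 were higher with THZ1 and 3 lower (median 0.18, -1.91 with spike-in scaling). NELFE, a subunit of the negative elongation factor that holds paused polymerase, was the lowest. It had 32.9, 39.1 and 37.1 FPKM with THZ1, 73.9, 85.7 and 81.3 with YKL 2 µM and 52.9, 47.6 and 47.3 with DMSO. The groups were apart, with DMSO between them (difference -1.12 ± 0.06). TCEB3 (elongin A) and CTR9 (a subunit of the PAF1 complex) were higher with THZ1, at 52.0 ± 1.29 against 31.1 ± 0.482 and 59.8 ± 1.33 against 37.4 ± 2.10 FPKM. RNA polymerase II subunits gave 7 of 12 higher and 1 lower (median 0.25, -0.21 with equal total FPKM and -2.04 with spike-in scaling). POLR2A, the large subunit whose tail CDK7 phosphorylates, had 203, 207 and 191 FPKM with THZ1, 116, 116 and 110 with YKL 2 µM and 49.3, 60.8 and 62.2 with DMSO. Both treatments were above DMSO, and THZ1 above YKL (difference 0.81 ± 0.08). POLR2H, a small subunit, was the 1 lower member, at 43.4 ± 0.923 against 49.5 ± 1.28.

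Splicing factors of the SR and hnRNP families were mostly higher with THZ1 than with YKL 2 µM. On the deposited scale 22 of 26 were higher with THZ1 and 0 lower (median 0.44, -0.02 with equal total FPKM and -1.83 with spike-in scaling). The 1282 genes with the highest mean level had a median of 0.40, and the list was not set against genes of like level. HNRNPH1 had 210, 207 and 217 FPKM with THZ1, 78.7, 76.6 and 76.6 with YKL 2 µM and 229, 210 and 217 with DMSO. The THZ1 and DMSO ranges overlapped and the THZ1 mean was 2.73-fold above that of YKL (difference 1.44 ± 0.03, limma adjusted p = 5.87e-25). HNRNPL averaged 224 ± 3.25, 92.7 ± 0.743 and 274 ± 13.6 FPKM in the same order (difference 1.26). With YKL 500 nM HNRNPH1 averaged 76.3 ± 2.68 and with the combination 79.8 ± 0.966, against 190 ± 2.36 with THZ531.

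Immediate early genes, a class of fast, short-lived transcripts, were mostly higher with THZ1: 23 of 34 tested, with 3 lower (median 0.38, -0.01 with equal total FPKM and -1.37 with spike-in scaling). IER3, a stress-induced regulator of cell survival, had 29.6, 33.4 and 34.2 FPKM with THZ1, 5.95, 6.27 and 5.22 with YKL 2 µM and 4.68, 3.87 and 4.6 with DMSO. The THZ1 libraries were 5.58-fold above YKL and far from both other groups (difference 2.29 ± 0.10, limma adjusted p = 1.76e-18). With spike-in scaling it differed by 0.14 and did not pass. IER5L, a relative of the early response gene IER5, was at 10.5 ± 0.752 with THZ1, 1.96 ± 0.186 with YKL 2 µM and 1.35 ± 0.447 with DMSO (difference 1.96).

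MYC, the growth-promoting transcription factor, had 194, 198 and 197 FPKM with THZ1, 77.8, 88.1 and 82.3 with YKL 2 µM and 133, 138 and 131 with DMSO. The groups were apart, THZ1 above DMSO and YKL under it (difference 1.24 ± 0.05). PPP1R15A, which restores translation after stress, was lower with THZ1 at 8.24 ± 0.452 against 12.6 ± 0.881. BTG2, which belongs to this list too, and JUND (-0.44, named after its value was seen) were the other lower members.

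Targets of YAP and TEAD, the transcription factors of the Hippo pathway, did not lean to 1 side: 7 of 24 tested were higher and 6 lower (median 0.06). CTGF and CYR61, secreted matrix proteins commonly used together as readouts of YAP, differed in opposite directions. CTGF had 69.5, 74.0 and 72.5 FPKM with THZ1, 31.2, 32.4 and 30.8 with YKL 2 µM and 16.2, 16.0 and 16.1 with DMSO (difference 1.17 ± 0.06). CYR61 had 73.5, 71.4 and 68.5 with THZ1, 100, 103 and 99.5 with YKL 2 µM and 35.2, 34.2 and 31.8 with DMSO (difference -0.50 ± 0.05). Both treatments exceeded DMSO for each gene, without overlap. SRF targets of the actin cytoskeleton were split as well, 8 of 16 higher and 6 lower (median 0.10). ACTA2, smooth muscle actin, had 1.71, 1.64 and 2.13 FPKM with THZ1, 9.43, 10.2 and 9.84 with YKL 2 µM and 2.60, 1.76 and 1.56 with DMSO. The YKL libraries stood apart from the other 6 (difference -1.94 ± 0.13). ACTG1, cytoplasmic actin, was higher with THZ1, at 2345 ± 78.4 against 1154 ± 5.95, with DMSO at 1895 ± 59.2.

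NRF2 targets, which counter oxidants and electrophiles, were 21 of 22 tested higher with THZ1 and 0 lower (median 0.56, 0.12 with equal total FPKM and -1.62 with spike-in scaling). FTL, the light chain of the iron store ferritin, had 1332, 1275 and 1308 FPKM with THZ1, 559, 607 and 597 with YKL 2 µM and 686, 630 and 588 with DMSO. YKL and DMSO overlapped and THZ1 lay 2.22-fold above YKL (difference 1.15 ± 0.05). PGD, an enzyme of the pentose phosphate pathway, averaged 156 ± 2.16, 78.5 ± 0.649 and 126 ± 1.30 FPKM in that order. THZ531 left FTL at 662 ± 10.1.

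Integrated stress response genes, driven by ATF4, were higher for 24 of 33 tested and lower for 3 (median 0.46, 0.01 with equal total FPKM and -1.70 with spike-in scaling). ASNS, asparagine synthetase, was under DMSO with both treatments: 79.6 ± 3.23 FPKM with THZ1, 38.5 ± 1.83 with YKL 2 µM and 110 ± 9.07 with DMSO (difference 1.03). PHGDH, the entry enzyme of serine synthesis, was at 196 ± 3.56, 95.6 ± 4.49 and 168 ± 7.88. CBS, of the transsulfuration pathway, and AARS, a tRNA synthetase, were lower with THZ1 (differences -0.26 and -0.16).

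Heat shock genes gave 14 of 19 higher and 1 lower (median 0.20, -2.03 with spike-in scaling). CRYAB, a small chaperone, had 36.1, 29.6 and 29.3 FPKM with THZ1, 6.79, 7.47 and 6.34 with YKL 2 µM and 15.5, 16.5 and 14.4 with DMSO. The groups were apart with DMSO in between (difference 2.05 ± 0.15). The HSP90 gene HSP90AB1 was at 2296 ± 82.1 against 1410 ± 8.68 (difference 0.70), and HSPA8, the constitutive HSP70, was the lower member at 1492 ± 28.3 against 1637 ± 46.2.

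Genes of DNA repair that CDK12 is reported to sustain did not lean to 1 side, with 12 of 34 higher and 8 lower (median 0.02), and differed member by member. Those counts compare with 35.5% higher and 32.6% lower over all tested genes. FANCA, a core protein of the Fanconi anaemia pathway, had 23.3, 24.0 and 24.6 FPKM with THZ1, 7.90, 7.91 and 7.70 with YKL 2 µM and 12.8, 12.9 and 14 with DMSO. The 3 treatments were apart and THZ1 was 3.06-fold above YKL (difference 1.5 ± 0.04). THZ531 gave 22.6 ± 0.825, close to THZ1. FANCD2, its ubiquitinated partner, was at 22.6 ± 1.42 with THZ1, 11.4 ± 0.765 with YKL 2 µM and 26.6 ± 0.808 with DMSO. BRCA1, of homologous recombination, was lowest with THZ1, at 7.71, 8.28 and 8.74 FPKM, against 12.9, 12.2 and 12 with YKL 2 µM and 16.8, 16.7 and 18.1 with DMSO (difference -0.53 ± 0.05).

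Replication-dependent histone transcripts are normally not polyadenylated, so the histone rows count tailed copies and histone variants. Of 34 tested in a list of 42, 17 were higher with THZ1 and 5 lower (median 0.33, -0.03 with equal total FPKM). The variant H2AFX, phosphorylated at DNA breaks, was at 161 ± 6.83 with THZ1, 68.5 ± 3.57 with YKL 2 µM and 144 ± 10.7 with DMSO. HIST1H2BD had 22.8, 21.7 and 21.8 FPKM with THZ1, 37.4, 34.6 and 36.3 with YKL 2 µM and 2.64, 3.89 and 2.89 with DMSO. Both treatments were many times above DMSO, with YKL higher (difference -0.68 ± 0.19). HIST1H4C was at 3.95, 5.93 and 9.13 with THZ1 and under 0.6 FPKM in all YKL 2 µM libraries, and as a gene with near-identical copies it is uncertain.

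Genes of basic metabolism were mostly higher with THZ1 on the deposited scale. With spike-in scaling their medians were under that of all genes, but low genes moved less there, so that order is uncertain. Of nuclear oxidative phosphorylation genes 41 of 58 were higher and 4 lower (median 0.37), with ATP5B, the catalytic subunit of ATP synthase, at 1705 ± 19.4 against 1063 ± 20.6 and NDUFB5, of complex I, the other way at 97.7 ± 4.28 against 137 ± 8.81. Proteasome subunits were higher for 26 of 31 and lower for 1 (median 0.30), with PSMB2 at 98.4 ± 1.15 against 62.8 ± 3.07. Cholesterol synthesis genes were higher for 15 of 24 and lower for 3 (median 0.30), with TM7SF2, a sterol reductase, among the lower at 10.4 ± 0.851 against 17.8 ± 1.5. Of 9 tested NF-kB and cytokine genes of 19 in the list 3 were higher and 3 lower (median -0.11), with the chemokine CCL2 at 24.6 ± 1.76 against 5.84 ± 0.131 (difference 1.90) and NFKB2, an NF-kB subunit, at 11.6 ± 0.771 against 16.0 ± 1.15.

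**Figure D4:**
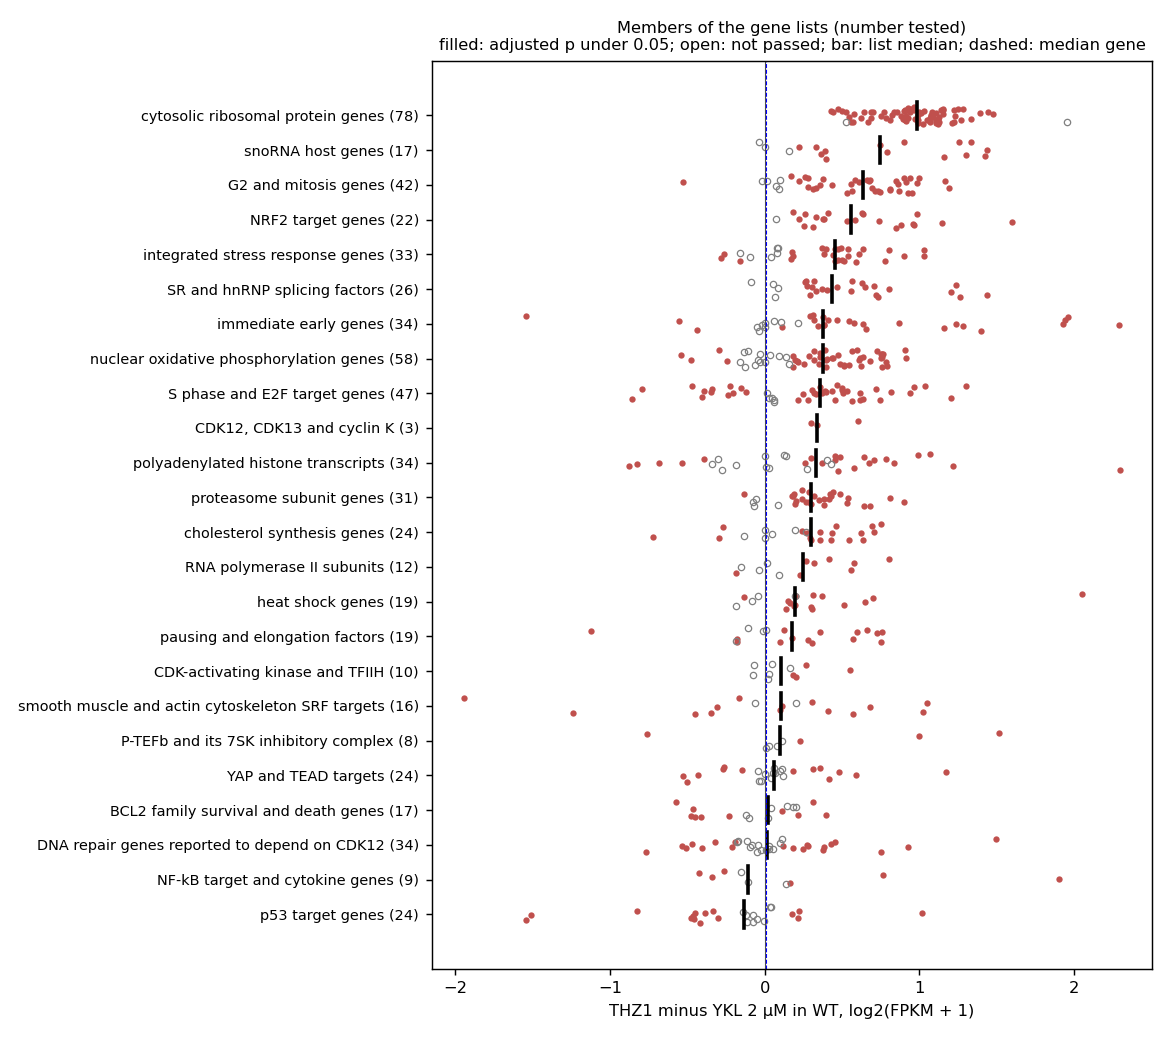
THZ1 minus YKL 2 µM in WT on log2(FPKM + 1) for each tested member of 24 gene lists (filled red where adjusted p was under 0.05, open otherwise), with list medians as bars and the median gene dashed, on the deposited scale. Ribosomal protein and snoRNA host genes have the highest medians, 0.98 and 0.75, and p53 targets the lowest, -0.13, while with spike-in scaling every list median was under 0.

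Outside the lists, some of the largest differences were as follows. SPARCL1, a secreted matrix protein, had 36.9, 38.9 and 44.6 FPKM with THZ1, 7.03, 6.75 and 6.95 with YKL 2 µM and 2.86, 3.78 and 3.40 with DMSO. All groups were apart, THZ1 5.80-fold above YKL (difference 2.37 ± 0.08, limma adjusted p = 2.96e-21). With spike-in scaling it differed by 0.19 and did not pass. SCG2, a granin of secretory granules, had 6.18, 5.69 and 5.66 with THZ1 and between 0.687 and 0.759 with YKL 2 µM (difference 1.99 ± 0.07). A further 4 rows among the largest are uncertain as gene measurements: the pseudogenes SLC7A5P1 (2.85) and HNRNPA1P10 (2.82), the read-through ZFP91-CNTF (2.24), and RMRP (2.52), a short RNA that is not polyadenylated, with 117, 29.9 and 26.4 FPKM with THZ1 and 17.1, 3.06 and 6.16 with YKL 2 µM.

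On the lower side PNRC1, a nuclear receptor coregulator, had 4.17, 4.24 and 3.91 FPKM with THZ1, 17.9, 20.2 and 20.6 with YKL 2 µM and 3.05, 3.21 and 3.91 with DMSO. TLCD1, a membrane lipid regulator, had 8.81, 10.5 and 9.16, then 38.3, 43.3 and 39.5, then 11.4, 11.1 and 9.70 in the same order. For both genes the YKL libraries stood apart and THZ1 overlapped or nearly met DMSO (differences -2.01 ± 0.10 and -1.98 ± 0.12). RFX5, a regulator of MHC class II genes, and UCP2, a mitochondrial carrier, were instead under DMSO with THZ1 and above it with YKL. RFX5 had 5.67, 4.30 and 5.03 FPKM with THZ1, 22.2, 21.2 and 23.2 with YKL 2 µM and 10.4, 10.1 and 9.37 with DMSO (difference -1.96 ± 0.07). UCP2 had 6.08, 6.08 and 5.89 with THZ1, 24.5, 27.1 and 26.0 with YKL 2 µM and 17.2, 17.0 and 14.4 with DMSO (difference -1.94 ± 0.08). With THZ531 UCP2 was at 5.02 ± 0.120 and with the combination at 9.60 ± 0.770. KRCC1 (-1.99), ZP3 (-2.00), AS3MT (-2.28), KANSL1-AS1 (-2.13) and LOC100289361 (-2.03) were also among the 10 largest differences on this side. An antisense row such as KANSL1-AS1 may hold reads of its partner, since how strand was used in counting is not given.

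In C312S cells 10076 genes (78.6%) passed for the same contrast, 5146 (40.2%) higher and 4930 (38.5%) lower with THZ1, and the test of the difference between lines called 8810 (68.7%), 4605 (35.9%) with a higher contrast in C312S and 4205 (32.8%) with a lower one. With spike-in scaling 8280 were higher and 257 lower for that difference, and in C312S itself 69 were higher and 11957 lower with THZ1 (1864 and 8569 with equal total FPKM). The C312S libraries with THZ1 and with DMSO stood apart from the other C312S libraries. Their summed FPKM was 852330 ± 52891 and 794374 ± 15174, against 561440 ± 6917 with YKL 2 µM, and their ribosomal protein share 28.8% and 28.1%, against 21.2%. The THZ1 contrast in C312S therefore also sets a group of libraries that stood apart against 1 that did not, and the line, the treatment and that gap cannot be told apart. Spike-ins relative to genes were 1.43 log2 higher with THZ1 than with YKL 2 µM in C312S, against 2.29 in WT. In C312S their level averaged 0.98 with THZ1, 0.76 with DMSO and -0.45 with YKL 2 µM. In WT it averaged 1.82, -0.62 and -0.47 in that order. In C312S the DMSO libraries thus lay near those with THZ1, and in WT near those with YKL 2 µM.

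POLR2A turned from 0.81 in WT to -0.61 in C312S, where it averaged 51.0 ± 1.46 FPKM with THZ1, 78.1 ± 2.55 with YKL 2 µM and 25.6 ± 1.00 with DMSO. CCNE2 turned from -0.86 to 0.75, with C312S means of 31.9 ± 1.11, 18.7 ± 2.92 and 46.1 ± 1.77. CDKN1A turned from 0.22 to -0.96, with C312S means of 2.85 ± 0.263 with THZ1, 6.50 ± 0.252 with YKL 2 µM and 3.5 ± 0.597 with DMSO. HEXIM1 and MYC stayed higher with THZ1 by less, at 0.52 and 0.53 in place of 1.52 and 1.24. With spike-in scaling the difference between lines did not pass for HEXIM1 (-0.22) or CDKN1A (-0.22). Nor did it pass for MYC (0.10), CDK12 (0.042), CDK13 (0.29) or E2F1 (0.083), where its sign changed. CDK7 itself had a larger contrast in C312S, 1.23, with 75.8 ± 0.741 FPKM with THZ1 and 31.7 ± 1.51 with YKL 2 µM, but 60.5 ± 1.75 with DMSO. CDK12 and CDK13 did not pass in C312S (-0.10 and -0.11), and the difference between lines was -0.71 and -0.45. MCL1 did not pass for the difference between lines (-0.15, 95% interval -0.29 to -0.01, limma adjusted p = 0.0553).

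**Figure D5:**
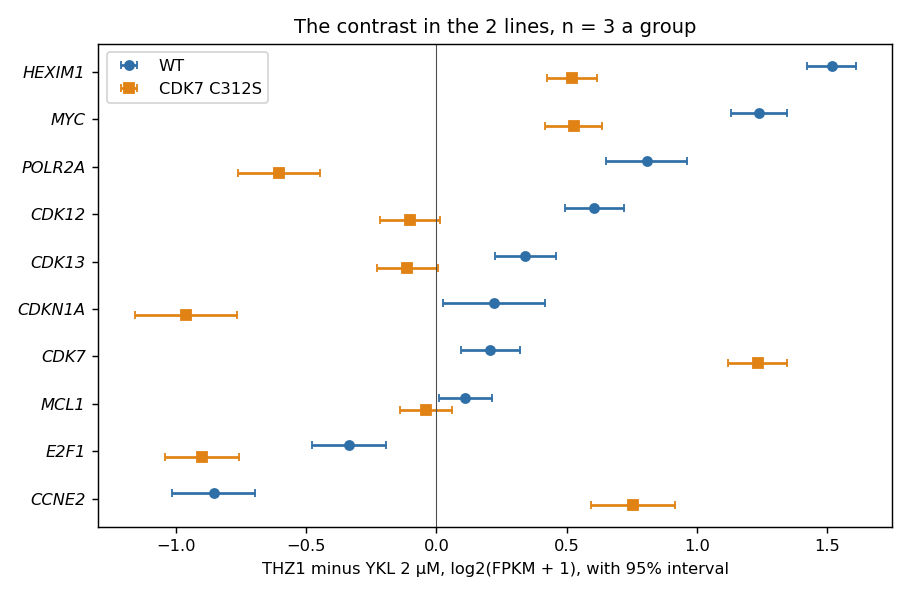
THZ1 minus YKL 2 µM on log2(FPKM + 1), deposited scale, for 10 genes in WT (circles) and CDK7 C312S cells (squares), with 95% intervals from the fit and n = 3 a group. POLR2A, CDKN1A and CCNE2 lie on opposite sides of 0 in the lines; with spike-in scaling all WT values shown are under 0.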

How the data were processed

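Polyadenylated RNA of 42 libraries in 14 groups of 3 was deposited as a table of FPKM per gene, and the authors' values were used as deposited. Per the submitters' processing notes the tools were Cufflinks 2.2.1, Cuffnorm and HISAT2 2.0.4 (order not given) and the build hg19. Columns were matched to samples through the samples' descriptions, and 0 were left unmatched. The table has 26228 gene rows and 92 ERCC rows.

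The 12816 genes reaching 1 FPKM in 3 or more libraries were compared on log2(FPKM + 1) by limma 3.58.1 (R 4.3.3, with the data.table package at version 1.17.8). The fit had 14 group means over all 42 libraries, moderated with an expression trend, and p was adjusted within a comparison (Benjamini-Hochberg). The scale understates the change of low genes. Folds are ratios of mean FPKM. The fit was tested on simulated data. Single values per library were compared with exact permutation tests. Within the THZ1 and the YKL 2 µM group the lowest correlations between libraries were 0.971 and 0.973, and 0 pairs of libraries were identical. An exact 0 occurred in the 6 libraries for 60 called genes, and can be a failed estimate.

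The genes and the 26 lists were chosen with earlier results of these data known. Named were called genes whose groups did not overlap, with a mean of at least 5 FPKM in 1 group and no exact 0, leaving out short RNA rows by symbol prefix (which kept RMRP): the 10 largest on each side and up to 2 members on each side of each list, with 10 genes and the transcriptional kinase lists open to naming. Alternatives were other pseudocounts, filters, scalings and library sets, a replicate block, and, chosen after seeing the data, GC and length trends removed and rows with a 0 left out. RefSeq windows on GRCh38.p14, matched by symbol for 61 of 86 genes, gave the sequences. Plots were drawn in matplotlib 3.10.9 (Python 3.11.15). Results of a few genes are not reported here.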

Additional observations from a re-analysis of the deposited data

Results flagged for a closer look

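The contrast of THZ1 and YKL 2 µM differed between the lines for 8810 of 12816 genes by the limma test of that difference. Among the genes open to naming, the contrast in C312S minus that in WT was 1.61 for CCNE2, 1.03 for CDK7, -0.45 for CDK13, -0.56 for E2F1, -0.71 for CDK12, -0.71 for MYC, -1.0 for HEXIM1, -1.18 for CDKN1A and -1.41 for POLR2A. The C312S libraries with THZ1 stood apart from those with YKL 2 µM in summed FPKM and ribosomal protein share, and the part of that gap in these values was not tested. The value for E2F1 was -0.04 once trends with GC content and length were removed, an alternative chosen after seeing the data (adjusted p = 0.68). With spike-in scaling the difference was -0.22 for both HEXIM1 (adjusted p = 0.197) and CDKN1A (adjusted p = 0.325), and neither was called. For MYC (0.10), CDK12 (0.042), CDK13 (0.29) and E2F1 (0.083) it changed sign with that scaling and was not called either.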

How the results depend on the processing

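The count of called genes in WT stayed between 6957 (at least 5 FPKM in 3 libraries) and 12483 (spike-in scaling) over 16 alternatives, against 8719, and between 8278 and 8343 with 1 library left out. In C312S it was 8058 to 12026 against 10076, and for the difference between lines 7340 to 9404 against 8810. The share of WT calls higher with THZ1 was 50.8% to 57.7% under the pseudocount, filter and library alternatives named here or in the methods, 53.3% with median-ratio scaling, 12.7% with equal total FPKM and 0.0961% with spike-in scaling. The spike-in level difference was 2.29 with the 8 spike-ins above 10 FPKM in all libraries, 1.86 against total FPKM and 2.23 to 2.39 with 1 library left out. No pairing by replicate number was seen, though 3 pairs are too few to exclude one. Same-numbered THZ1 and YKL libraries deviated with correlations of -0.03, -0.07 and 0.00, and those with different numbers with -0.08 to 0.10. A replicate block gave 8703 calls in WT, 10061 in C312S and 8782 for the difference between lines, and of 86 genes checked 1, MCL1, was not called with it (adjusted p = 0.0566). Without the filter CDKN1A and MCL1 were not called (0.0598 and 0.0593), nor was MCL1 with GC and length trends removed (0.186). For the difference between lines MCL1 was called in 8 alternatives, 5 of them with 1 library left out. Median-ratio scaling reversed 0 of the 86 genes, but it moved the median gene only from 0.01 to 0.02 and so could reverse few.

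With equal total FPKM these WT differences became negative: CDK7 -0.24, CCNH -0.19, GTF2H3 -0.26, CDK13 -0.086 (not called), CCNK -0.15 (not called), CDKN1A -0.21, AEN -0.28, MCL1 -0.35 and BCL2L1 -0.14. With spike-in scaling these did: CDK7 -2.00, CCNH -1.98, GTF2H3 -1.93, CDK12 -1.55, CDK13 -1.71, CCNK -1.93, HEXIM1 -0.62, TCEB3 -1.52, CTR9 -1.59, POLR2A -1.49, POLR2E -1.72, MYC -1.06, CTGF -1.09, TYMS -1.01, MCM4 -1.73, TPX2 -1.13, PLK1 -1.10, CDKN1A -1.84, FDXR -1.16, AEN -2.08, MCL1 -2.15, BCL2L1 -1.93, BCL2L11 -1.42, PGD -1.31, FTL -1.17, PHGDH -1.27, ASNS -1.24, CRYAB -0.11, HSP90AB1 -1.62, H2AFX -1.07, FANCA -0.64, FANCD2 -1.21, RPLP0 -0.85, RPLP2 -0.98, SNHG1 -0.99, ZFAS1 -0.98, HNRNPH1 -0.86, HNRNPL -1.04, ATP5B -1.64, PSMB2 -1.64, CCL2 -0.22 and ACTG1 -1.30. Of these CRYAB and CCL2 were not called with that scaling. IER3 (0.14), IER5L (0.08), SPARCL1 (0.19) and RMRP (0.36) kept their sign with spike-in scaling and were not called. The difference between lines changed sign with spike-in scaling for CDK12 0.042, CDK13 0.29, E2F1 0.083, MYC 0.10 and MCL1 0.65, and of these only MCL1 was called. These shifts follow from the scaling factors, but 1 FPKM was added after scaling, so low genes moved less than high ones. With spike-in scaling 6509 of the 8719 called genes (74.7%), and 79 of the 86, stayed on the same side of the median gene. FPKM give no depth, so how far counting error limits low genes could not be assessed.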
